A study of Homo sapiens with 9 samples.

Results

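The genes described here are 48 genes of the lysosome, the acidic compartment in which cells break down proteins, sugars, lipids and organelles. They were taken by name from a count table of 58347 gene IDs and comprise 8 protease genes, 11 glycosidase and sulfatase genes, 5 genes of lipid enzymes and saposins, 6 membrane and cholesterol transport genes, 15 subunits or accessory proteins of the vacuolar proton pump (V-ATPase), and the transcription factor genes TFEB, TFE3 and MITF. The rule names the genes and uses no measured value, but the genes were chosen with earlier results of these data known. All 48 passed the filter on low counts, as did 23675 genes in all.

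The cells were K562, an established human erythroleukaemia line. Per the labels, they stably carried dCas9 with a blasticidin marker, an MS2-Fkbp(1x) fusion with a hygromycin marker and an SS18-Frb fusion with a puromycin marker. The dCas9 and both fusions were driven by the EF1a promoter. dCas9 binds DNA at its guide RNA (sgRNA) without cutting, SS18 is a subunit of the BAF chromatin remodelling complex, and rapamycin joins Fkbp to Frb. The groups were an sgRNA to the HBG1 promoter with 10 nM rapamycin for 24 h (n = 3), the same guide with DMSO (n = 3), a non-targeting sgRNA with rapamycin (n = 2) and a non-targeting sgRNA with DMSO (1 library). Every group carried all 3 introduced parts, and the labels do not say whether the cells were 1 clone or separate cultures, so the spread between replicates may be technical. Any other library with the non-targeting guide was not analysed here.

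Lysosomal enzymes work at the low pH that the V-ATPase maintains by moving protons into the lumen. In its V1 part ATP is split, and the V0 part in the membrane carries the protons. Many lysosomal genes are known targets of TFEB, TFE3 and MITF, a family of factors that bind CACGTG-containing elements near gene starts. The kinase complex mTORC1, which rapamycin inhibits in part, phosphorylates these factors and holds them in the cytoplasm, so much of their control does not pass through their own RNA level. Rapamycin acts on mTORC1 in every cell that receives it, whichever guide the cell carries.

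The libraries held 19797409 to 31619671 counts each, and levels are CPM, the usual depth-scaled count unit, scaled further between libraries with TMM. HBG1, the targeted gamma-globin gene, stood at 1533, 1808 and 2448 CPM with its guide and rapamycin, at 137.4, 312.7 and 436.5 with its guide and DMSO, at 8851 and 8944 with the non-targeting guide and rapamycin, and at 8233 in the non-targeting DMSO library. The 10 erythroid markers summed to 10144 to 20014 CPM with the HBG1 sgRNA and 5515 to 7390 with the non-targeting sgRNA. None of them was at 0 in a group. In any library 7 macrophage and monocyte markers summed to at most 2.06 CPM and 6 osteoclast markers to at most 4.64 CPM. The 5 lymphoid markers reached at most 8.93 CPM, 4 fibroblast markers at most 26.5, and 4 melanocyte markers summed to 29.5 to 44.3. The libraries of replicate 1 with the HBG1 sgRNA stood apart from replicates 2 and 3. Deviations from the group means correlated across genes at 0.55 between the 2 libraries of replicate 1. With libraries of the other numbers the correlations were -0.41 to -0.32. After centring on group means these must be negative on balance, so they add no separate evidence. The 48 lysosomal genes together took 0.334% to 0.37% of counts, or 3417 to 3618 CPM, in the 9 libraries, and with the HBG1 sgRNA these sums overlapped between treatments.

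The sequences around the gene starts were searched for the element that the TFEB family recognises. In RefSeq windows on GRCh38.p14 from 250 bases before to 50 bases after the start, 35 of the 48 genes could be matched by symbol. CACGTG, which reads the same on both strands, was in the windows of 11 of the 35 (31.4%), against 8.77% of 27305 genes with a window. These were CTSF, CTSD, CTSA, GAA, NEU1, LAMP1, CD63, MCOLN1, ATP6V0B, ATP6V0D1 and ATP6V1G1. The 27305 genes include many that did not pass the filter on low counts, which all 48 passed. Among tested genes with a window, 1442 held CACGTG and 10378 did not. The extended form TCACGTGA, which contains CACGTG, was in 6 of the 35 (CTSA, GAA, LAMP1, MCOLN1, ATP6V0D1 and ATP6V1G1), against 1.18% of all genes with a window. A match is a description of the letters and not a measured binding site.

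The runs below are shown because they hold the copies of CACGTG nearest to genes that rose (CTSF and CTSD) or to the genes with CACGTG that did not pass the test and had the lowest (LAMP1) and highest (GAA) log2 fold change, beside a gene that fell and has none (CTSC). CACGTG is in capitals, the runs read 5′ to 3′ on the gene's strand, and positions count backwards from the RefSeq start. Runs cover stretches outside annotated exons, or 30 bases around a copy where another transcript's exon covers it.
CTSF, chr11:66568712-66568741, minus strand: acatataacaagCACGTGatagaggtcagt
CTSF, chr11:66568607-66568717, minus strand: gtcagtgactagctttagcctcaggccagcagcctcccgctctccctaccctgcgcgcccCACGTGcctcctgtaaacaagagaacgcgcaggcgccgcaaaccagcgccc
CTSD, chr11:1763957-1763986, minus strand: gccggccgcgccCACGTGaccggtccgggt
LAMP1, chr13:113296989-113297238, plus strand: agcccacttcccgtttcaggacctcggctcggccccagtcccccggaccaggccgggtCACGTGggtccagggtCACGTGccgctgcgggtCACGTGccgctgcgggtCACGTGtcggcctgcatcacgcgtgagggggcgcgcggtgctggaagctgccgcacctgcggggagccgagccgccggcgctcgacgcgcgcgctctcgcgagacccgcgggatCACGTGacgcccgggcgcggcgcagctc
GAA, chr17:80101331-80101555, plus strand: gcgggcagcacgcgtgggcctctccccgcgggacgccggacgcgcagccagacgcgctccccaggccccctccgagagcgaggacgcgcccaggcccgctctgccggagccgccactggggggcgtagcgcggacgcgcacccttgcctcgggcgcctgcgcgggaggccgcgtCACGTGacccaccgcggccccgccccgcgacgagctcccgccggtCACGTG
CTSC, chr11:88337788-88337986, minus strand: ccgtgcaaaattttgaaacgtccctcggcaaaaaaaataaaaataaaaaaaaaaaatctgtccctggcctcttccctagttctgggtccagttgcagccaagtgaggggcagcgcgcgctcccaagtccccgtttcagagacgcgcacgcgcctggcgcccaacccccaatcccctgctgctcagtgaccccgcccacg
In CTSF the first bases of the copies lie at -123 and -51, and in CTSD the single copy lies at -47. LAMP1 has 6 copies, from -192 to -1, of which the last runs over the start and is not shown whole. GAA has 2, at -76 and -31.

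The first comparison asked what rapamycin changed in cells with the HBG1 sgRNA. Of the 48 genes, 4 passed the test: CTSF and CTSD, which encode proteases, rose, and CTSC, a protease gene, and NAGLU, a heparan sulfate glycosidase gene, fell. That is 8.33% of the 48, close to the 6.8% of all tested genes, and the 2 that rose and 2 that fell stand beside 2.75% of all genes called higher and 4.05% called lower. The median log2 fold change was 0.01 over the 48 and 0.02 over all tested genes, with 25 of the 48 above 0 and 23 below. In this fit, which has no replicate block, the share and the median were thus near those of the whole table. Counts of calls by role in this fit stand beside the same 6.8%. With only genes at a mean CPM of at least 1, 5 of 47 were called (10.6%), beside 10.5% of all 17108. Calls are at an adjusted p under 0.05 (edgeR quasi-likelihood test, Benjamini-Hochberg over all 23675 genes). In the same test 13 of the 48 genes and 4933 of all 23675 had an unadjusted p under 0.05. In bulk RNA a difference in every cell and one in some of the cells cannot be told apart.

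The split of calls into higher and lower moved with the scaling, and their number rose with the replicate block. No called gene changed direction. With upper-quartile scaling, which raised the median of all genes to 0.06, the 4 calls were 3 higher and 1 lower, with TPP1 gained and NAGLU lost, and over all genes 819 higher and 673 lower in place of 650 and 959. With the replicate number as a block, 11 of 47 genes were called (23.4%), 5 higher and 6 lower, against 17.1% of all 20179 genes in that fit. Without both replicate 1 libraries, a setting chosen after seeing the data, 5 were called (10.4%), 3 higher and 2 lower, against 9.09% of all 23211 genes in that fit.

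**Figure D1:**
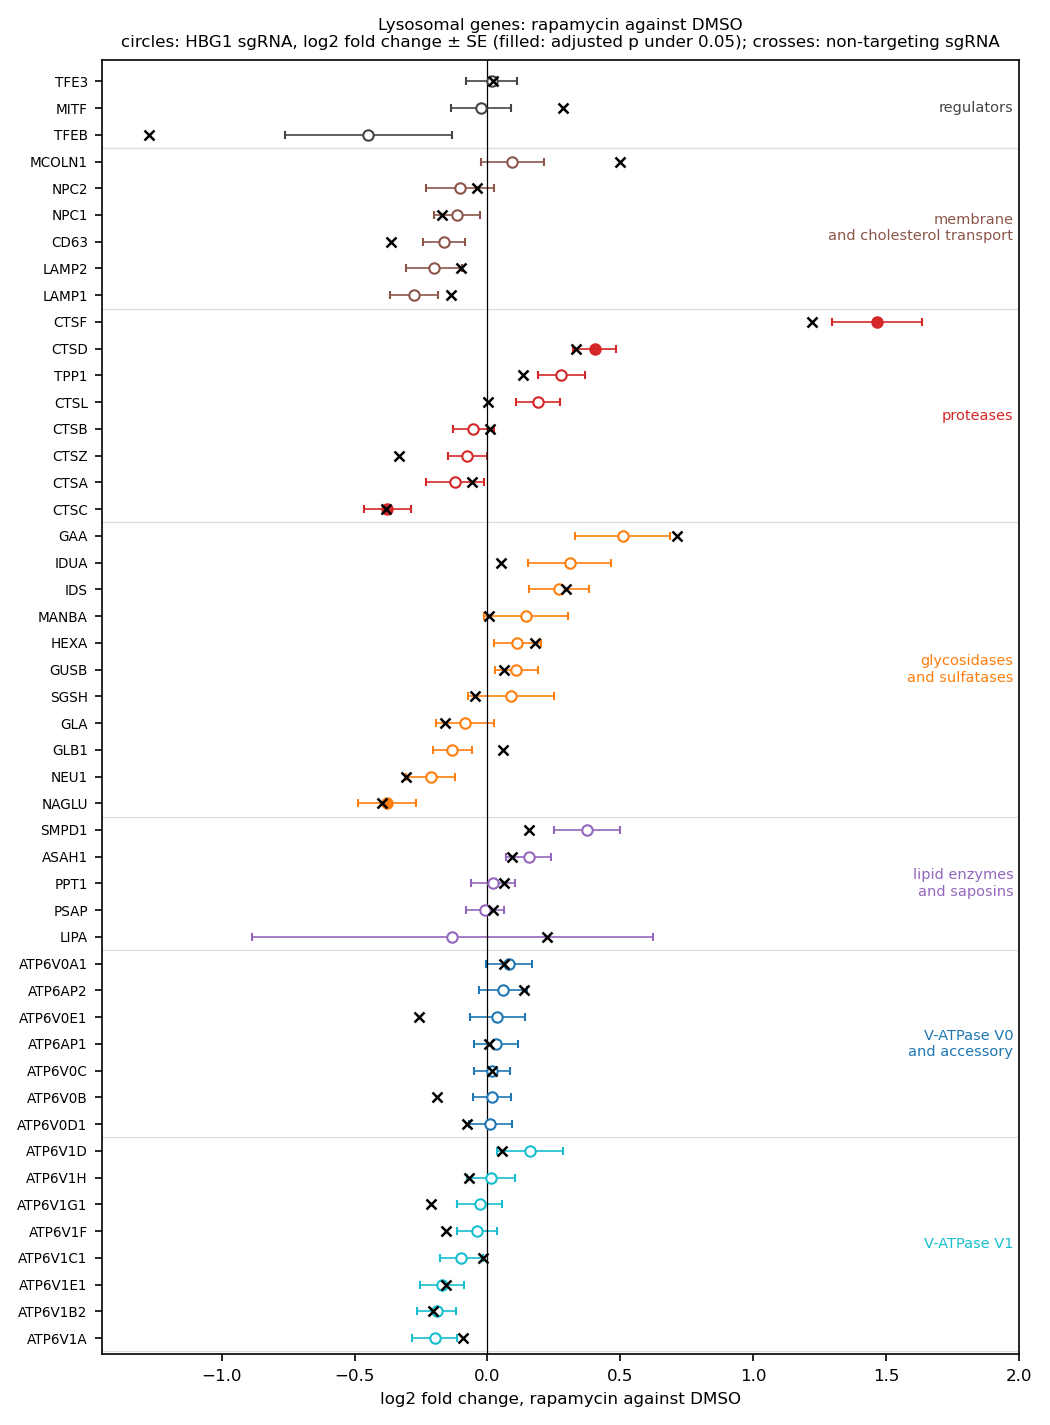
Log2 fold change with rapamycin for each of the 48 genes, by role. Circles with bars give the HBG1 sgRNA value ± SE (3 against 3 libraries), filled where the adjusted p was under 0.05, and crosses give the non-targeting sgRNA value (2 libraries against 1, no test). CTSF lies at 1.47 and 1.22, and the 15 proton pump genes lie between -0.20 and 0.16 with the HBG1 sgRNA.

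None of the 3 regulator genes was called by edgeR, DESeq2 or limma voom, and none had an unadjusted p under 0.05. TFE3 had the highest RNA level of the 3: per kilobase of exon it stood at 10.5 ± 1.09 CPM (SD, n = 3) with the HBG1 sgRNA and DMSO, against 3.10 ± 0.278 for MITF and 0.415 ± 0.130 for TFEB. TFE3 was at 41.70, 47.60 and 46.22 CPM with rapamycin and at 40.11, 44.81 and 49.43 with DMSO. The groups overlapped, and the log2 fold change came to 0.02 (SE 0.09, adjusted p = 0.952, edgeR).

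MITF was at 19.56, 21.42 and 24.30 CPM with rapamycin and 21.48, 20.73 and 24.50 with DMSO. Its difference was -0.02 on the log2 scale (SE 0.11, edgeR adjusted p = 0.934). TFEB was at 1.76, 1.95 and 1.43 CPM with rapamycin and 1.72, 2.16 and 3.15 with DMSO. The TFEB groups overlapped, and its log2 fold change of -0.45 (SE 0.32, adjusted p = 0.464, edgeR) did not pass the test. In cells with the non-targeting guide TFEB was at 1.11 and 1.09 CPM with rapamycin and 2.66 in the DMSO library, a log2 fold change of -1.27 with no test. RNA levels say nothing of where these proteins were in the cell.

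Among the 8 protease genes, 3 were called (37.5%, beside 6.8% of all tested genes). The largest difference of all 48 genes was found here. CTSF encodes cathepsin F, a cysteine protease (ENSG00000174080, chromosome 11, 66563463 to 66568841, minus strand, GRCh38). Its level was 14.55, 14.58 and 16.86 CPM with rapamycin and 6.77, 4.19 and 5.71 with DMSO. Every rapamycin library was above every DMSO library. The log2 fold change was 1.47 (SE 0.17, adjusted p = 0.000159, edgeR), a 2.76-fold rise, and CTSF was called under all 21 alternatives, at 1.29 to 1.69.

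The rise moved CTSF from 1.92 ± 0.448 to 5.29 CPM per kilobase of exon, from rank 43 of 48 among the DMSO levels. With the non-targeting sgRNA it was at 14.01 and 13.87 CPM with rapamycin and 5.97 with DMSO, a log2 fold change of 1.22. Under rapamycin the log2 difference between guides in CTSF was 0.14 (SE 0.18), with an unadjusted p of 0.449 in edgeR.

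CTSD encodes cathepsin D, the main aspartic protease of lysosomes (ENSG00000117984, chromosome 11, 1752752 to 1764573, minus strand). It was at 115.0, 136.0 and 139.7 CPM with rapamycin and 101.0, 94.76 and 99.85 with DMSO, without overlap. The log2 fold change was 0.40 (SE 0.08, adjusted p = 0.00793, edgeR), or 1.32-fold. The call was lost without rapamycin replicate 3 (0.35, adjusted p = 0.0545) and without DMSO replicate 2 (0.38, adjusted p = 0.0526). The CTSD exons share 52.69% of their bases with exons of other annotated genes, chiefly AC068580.4 on the same strand, which was called at a log2 fold change of 0.44, so reads in the shared exons cannot be told apart and the CTSD level is uncertain. The non-targeting libraries held CTSD at 128.1 and 134.6 CPM with rapamycin and 104.4 with DMSO.

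CTSC encodes cathepsin C, a dipeptidyl peptidase that activates serine proteases of granules (ENSG00000109861, chromosome 11, 88293592 to 88337787, minus strand). It was at 74.68, 84.08 and 93.48 CPM with rapamycin and 101.5, 117.5 and 108.9 with DMSO, again without overlap. It fell by 0.38 on the log2 scale (SE 0.09, adjusted p = 0.0174, edgeR), and with the non-targeting sgRNA it was at 85.72 and 85.99 CPM against 111.8, also -0.38. The call was lost without DMSO replicate 2 (-0.32, adjusted p = 0.103) and without DMSO replicate 3 (-0.38, adjusted p = 0.0638).

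The other 5 protease genes did not pass the test. TPP1, a tripeptidyl peptidase gene, was at 68.23, 74.72 and 72.63 CPM with rapamycin and 53.40, 61.08 and 63.45 with DMSO. The groups did not overlap, the log2 fold change was 0.28 (adjusted p = 0.0673, edgeR), and with the replicate block it was called at 0.29 (adjusted p = 0.00652). DESeq2 also called TPP1 (adjusted p = 0.0363). CTSL, CTSB, CTSZ and CTSA, which encode cathepsins L, B and Z and protective protein, lay between -0.12 and 0.19.

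**Figure D2:**
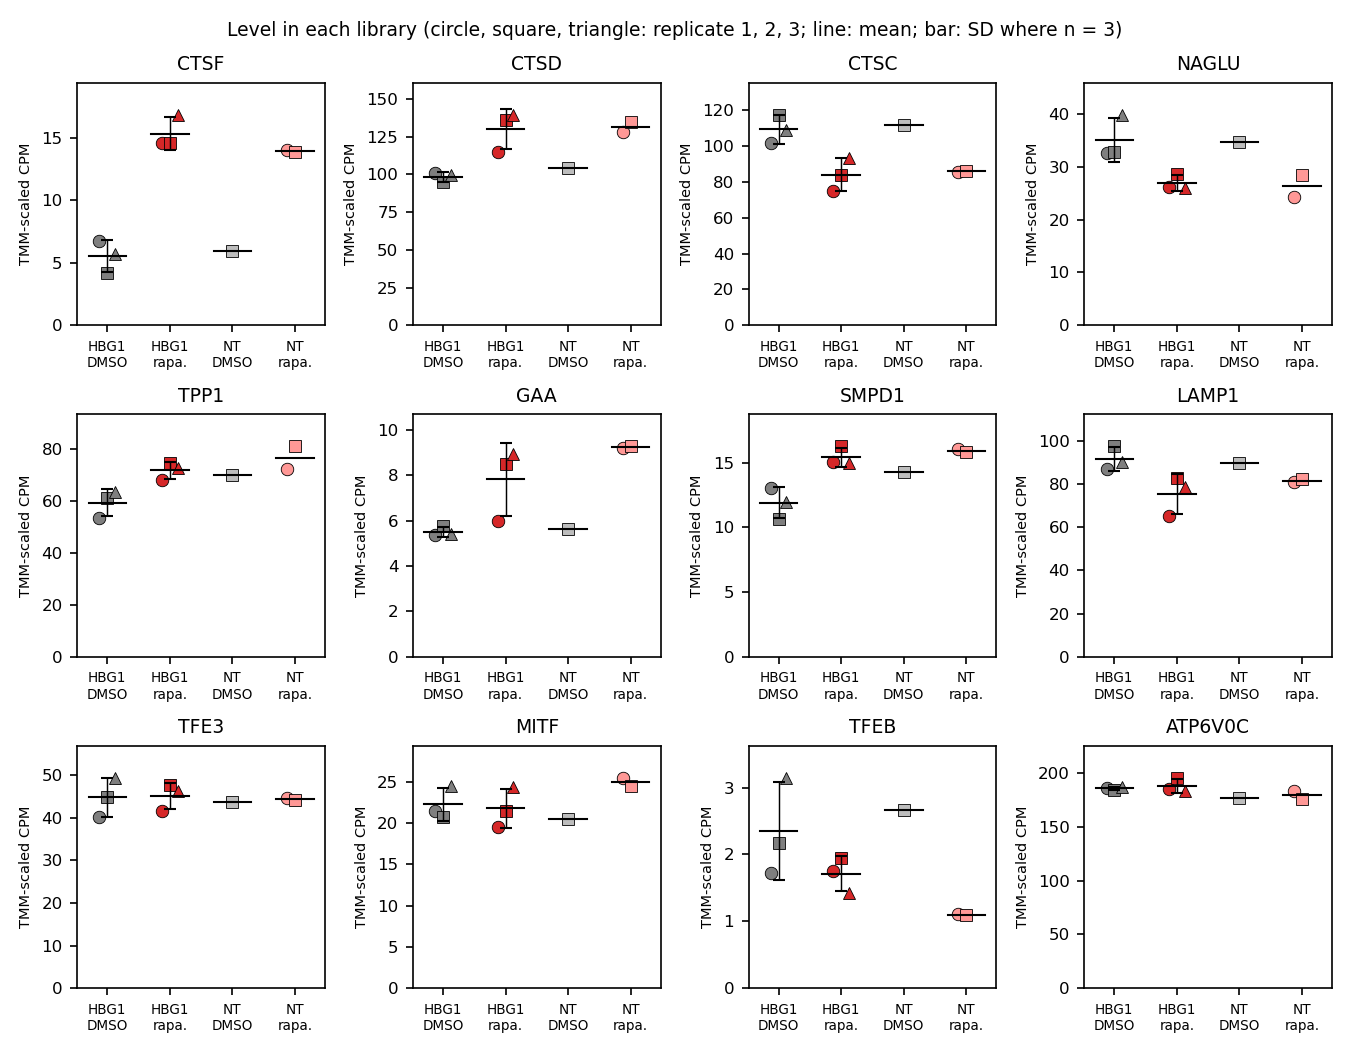
TMM-scaled CPM of 12 of the genes in each of the 9 libraries, by guide (HBG1 or NT, the non-targeting sgRNA) and treatment (DMSO or rapa., rapamycin), with lines at group means and SD bars for the groups of 3. CTSF is at 13.87 CPM or more in every rapamycin library and at 6.77 or less in every DMSO library, while ATP6V0C and TFE3 show no separation.

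Of the 11 glycosidase and sulfatase genes, which encode enzymes that take apart sugar chains and glycogen, 1 was called (9.09%, beside 6.8% of all tested genes). NAGLU (ENSG00000108784, chromosome 17, 42536172 to 42544449, plus strand) was at 26.17, 28.69 and 26.08 CPM with rapamycin and 32.63, 32.88 and 39.89 with DMSO. The groups did not overlap, and NAGLU fell by 0.38 on the log2 scale (SE 0.11, adjusted p = 0.0447, edgeR). It stood close to the threshold.

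The NAGLU call was lost in 10 of 21 alternatives, among them upper-quartile scaling (adjusted p = 0.0782), library totals alone (0.0755) and the 6 HBG1 sgRNA libraries fitted alone (0.0543). It was also lost without rapamycin replicate 1 (0.08), 2 (0.0566) or 3 (0.154), without DMSO replicate 2 (0.0823) or 3 (0.213), and without non-targeting rapamycin replicate 1 (0.0548) or 2 (0.0549). With the replicate block it was called (adjusted p = 0.00999). The non-targeting libraries held NAGLU at 24.35 and 28.42 CPM with rapamycin and 34.74 with DMSO. Its exons share 12.62% of their bases with AC067852.1, a transcript on the same strand.

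GAA, the gene of acid alpha-glucosidase that degrades glycogen, had the highest value of this role at 0.51 (SE 0.18, adjusted p = 0.104, edgeR). It was at 5.99, 8.50 and 8.93 CPM with rapamycin and 5.35, 5.76 and 5.41 with DMSO. The groups did not overlap, but replicate 1 lay near the DMSO level, and without rapamycin replicate 1 GAA was called at 0.66 (adjusted p = 0.0237). In the non-targeting libraries it was at 9.20 and 9.28 CPM with rapamycin and 5.63 with DMSO.

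Of the remaining 9 genes of this role, IDS and IDUA, whose products degrade heparan and dermatan sulfate, had log2 fold changes of 0.27 and 0.31, and NEU1, the sialidase gene, had -0.21. With the replicate block IDS (0.28, adjusted p = 0.0431, edgeR) and NEU1 (-0.21, adjusted p = 0.0365) were called. GLB1, GLA, GUSB, HEXA, MANBA and SGSH, which encode further glycosidases and a sulfamidase, lay between -0.13 and 0.15.

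None of the 5 lipid enzyme and saposin genes was called in the 9-library edgeR fit, and 1 had an unadjusted p under 0.05. SMPD1, the acid sphingomyelinase gene, was at 15.07, 16.29 and 14.97 CPM with rapamycin and 13.06, 10.68 and 12.0 with DMSO. These groups did not overlap, and the log2 fold change was 0.37 (SE 0.12, adjusted p = 0.0874, edgeR). With the replicate block SMPD1 was called at 0.38 (adjusted p = 0.043), and its non-targeting levels were 16.06 and 15.82 CPM against 14.30.

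LIPA, the gene of the acid lipase that frees cholesterol from its esters, was nearly absent, with 4 to 20 counts a library. It was at 0.774, 0.190 and 0.162 CPM with rapamycin and 0.356, 0.314 and 0.541 with DMSO, and its log2 fold change of -0.13 (SE 0.75, adjusted p = 0.948, edgeR) is too imprecise to show a difference of either sign. PSAP, the saposin precursor gene and the most abundant of the 48 in CPM, had a mean of 413.1 ± 31.8 (SD, n = 3) with rapamycin and 415.5 ± 7.96 with DMSO.

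In the 9-library edgeR fit with 1 mean per group, none of the 6 genes for membrane proteins and cholesterol transport was called, and 1 had an unadjusted p under 0.05. LAMP1, one of the main glycoproteins of the lysosomal membrane, was at 65.03, 82.75 and 78.47 CPM with rapamycin and 87.00, 97.44 and 90.06 with DMSO. The groups did not overlap, and the log2 fold change was -0.28 (SE 0.09, adjusted p = 0.0782, edgeR). With the replicate block LAMP1 (-0.28, adjusted p = 0.00699) and LAMP2 (-0.20, adjusted p = 0.0421), the related glycoprotein gene, were called. LAMP1 was also called by DESeq2 (adjusted p = 0.044), and by edgeR with no filter on low counts (0.0351), without rapamycin replicate 2 (0.0489) and in the additive model over both guides (0.0392).

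MCOLN1, a calcium channel gene of the lysosomal membrane, was the highest of this role at 0.09 (SE 0.12, adjusted p = 0.718, edgeR). It was at 17.50, 22.56 and 19.85 CPM with rapamycin and 18.14, 17.66 and 20.46 with DMSO, and the groups overlapped. MCOLN1 in the non-targeting libraries was at 22.42 and 23.83 CPM with rapamycin and 16.36 with DMSO. CD63, a tetraspanin gene, was at -0.16, and NPC1 and NPC2, which move cholesterol out of the lysosome, were at -0.11 and -0.10.

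None of the 15 proton pump genes was called in the 9-library edgeR fit, nor by limma voom or DESeq2, and 2, ATP6V1A and ATP6V1B2, had an unadjusted p under 0.05. Their log2 fold changes ran from -0.20 to 0.16 with a median of 0.01. The approximate 95% intervals, from the SE and a normal distribution, reached from -0.37 (ATP6V1A) to 0.40 (ATP6V1D), so changes beyond a factor of 0.776 or 1.32 lie outside the interval of every pump gene measured here.

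Within the V1 part, ATP6V1A, the catalytic subunit gene, was at 57.24, 51.87 and 58.11 CPM with rapamycin and 59.16, 68.34 and 64.63 with DMSO. The groups did not overlap, and the log2 fold change was -0.20 (SE 0.09, adjusted p = 0.188, edgeR). ATP6V1B2, the gene of its partner subunit, was at -0.19, and it was called with the replicate block (-0.19, adjusted p = 0.0424) and in the additive model over both guides (-0.20, adjusted p = 0.0339).

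ATP6V1D, a gene of the central stalk, was the highest pump gene at 0.16 (SE 0.12, adjusted p = 0.515, edgeR), with 23.48, 19.67 and 23.97 CPM against 21.84, 19.54 and 18.69. Its groups overlapped. The median over the 8 V1 genes was -0.07.

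The 7 genes of the membrane part V0 and its accessory proteins lay between 0.01 and 0.08. ATP6V0A1, which encodes a large membrane subunit, was at 130.4, 164.5 and 137.9 CPM with rapamycin and 134.1, 132.8 and 142.8 with DMSO, at 0.08 on the log2 scale (SE 0.09, edgeR adjusted p = 0.659). ATP6V0D1, which encodes a subunit joining both parts, was at 53.57, 56.77 and 53.85 CPM against 57.71, 53.61 and 51.50, with 0.01 (SE 0.08, adjusted p = 0.961). Both overlapped between groups, and their signs turned negative when rapamycin replicate 2 was left out.

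Across the 48 genes, rapamycin and DMSO libraries of the HBG1 sgRNA did not overlap for 12 (25%), 5 higher and 7 lower, against 25.3% of all tested genes. The 5 were CTSF, CTSD, TPP1, GAA and SMPD1. The 7 were CTSC, NAGLU, LAMP1, CD63, GLB1, ATP6V1A and ATP6V1B2. The share was that of the background.

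Levels per kilobase of exon spanned a wide range among genes whose products share a compartment. The length is the union of all annotated exons of a gene, 789 bases for ATP6V1F and 15378 for ASAH1. It can exceed the length of the transcripts present, so these levels and their order depend on the annotation too. With the HBG1 sgRNA and DMSO, ATP6V1F stood at 175.6 ± 10.4 CPM per kilobase (SD, n = 3), PSAP at 128.3 ± 2.45 and ATP6V0C, the gene of the proton-carrying ring, at 123.9 ± 0.840. At the low end were GAA at 1.07 ± 0.0431, MANBA at 0.987 ± 0.194, TFEB at 0.415 ± 0.130 and LIPA at 0.0823 ± 0.0246. Of the 47 neighbouring pairs in this order, 29 overlapped between their 3 libraries and 18 did not, so much of the order in the middle is within the spread. Exons of ATP6V0C share 72.1% of their bases with other annotated genes, so its level is uncertain.

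**Figure D3:**
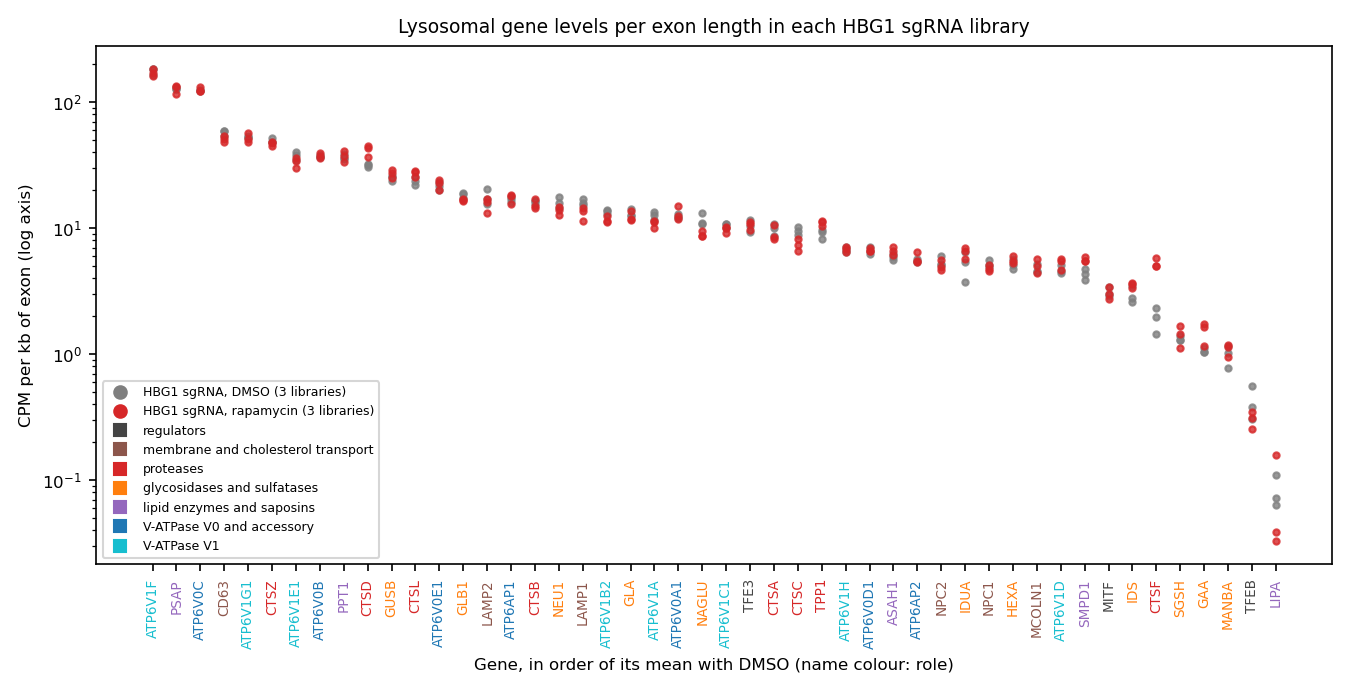
CPM per kilobase of exon (log axis) of the 48 genes in the 3 DMSO (grey) and 3 rapamycin (red) libraries with the HBG1 sgRNA, in order of the DMSO mean. For CTSF the red points lie well above the grey ones, while for most genes the colours overlap, and the levels run from 175.6 (ATP6V1F) to 0.0823 (LIPA).

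The second question was whether the same differences appeared without a targeting guide. With 2 rapamycin libraries and 1 DMSO library this comparison has values and no test. The sign with the non-targeting sgRNA matched that with the HBG1 sgRNA for 38 of the 48 genes, where 68.02% of all tested genes matched, and for all 4 called genes. Across the 48 genes the log2 fold changes correlated at a Pearson r of 0.82, at 0.87 without the 2 lowest genes LIPA and TFEB, and at 0.76 also without CTSF. These are correlations across genes, which are not independent replicates, and the HBG1 and non-targeting contrasts share no library. No such correlation was taken over all tested genes, so whether it is particular to the 48 genes was not tested. Of the 15 pump genes, 11 had the same sign, beside the 68.02% of all tested genes.

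A direct comparison of guides under rapamycin called none of the 48 genes with edgeR, with 3 at an unadjusted p under 0.05, and none with DESeq2 or limma voom. Over all genes 0.0296% were called, and 1484 of 23675 had an unadjusted p under 0.05 in edgeR. The 3 of the 48 were the pump genes ATP6V0B (0.28), ATP6V1F (0.22) and ATP6V1G1 (0.33), all higher with the HBG1 sgRNA. The lowest edgeR adjusted p of any of the 48 was 0.773. The log2 differences ran from -0.72 (LIPA) to 0.63 (TFEB) with a median of 0.01.

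The interaction, which is the rapamycin difference with the HBG1 sgRNA minus that with the non-targeting sgRNA, called none of the 48 genes with edgeR. None had an unadjusted p under 0.05, DESeq2 and limma voom called none, and 0.00422% of all genes were called. Values ran from -0.40 (MCOLN1) to 0.83 (TFEB). The single non-targeting DMSO library was assumed to vary like the others. For CTSF the interaction was 0.24 with an SE of 0.31, so only differences of a larger size could pass the test.

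The fold changes were also set beside the promoter letters. Of the 11 genes with CACGTG in their windows, CTSF and CTSD were called, both higher, and the median log2 fold change was 0.01, from -0.28 (LAMP1) to 1.47 (CTSF). Of the 24 matched genes without it, CTSC was called, lower, and the median was 0.02, from -0.45 to 0.37. Over all tested genes with a window, 14.1% of 1442 with CACGTG were called, 47 higher and 157 lower. Without it 8.93% of 10378 were called, 384 higher and 543 lower. The few calls among the lysosomal genes are thus a description and no result about the motif. LAMP1, with 6 copies of the element, had the lowest value of those 11. NAGLU had no window in the table.

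Further lysosomal genes, in lists also chosen with earlier results of these data known, were read from the same fit. Of 97 such genes, 89 were tested and 12 were called (13.5%), 6 higher and 6 lower, with a median of 0.01, beside the 6.8% of all tested genes. The share over all genes depends on the filter. With only genes at a mean CPM of at least 1 it was 10.5%, and 14 further genes were called, 8 higher and 6 lower. Upper-quartile scaling gave 8 higher and 3 lower, and library totals alone gave 6 and 3. With the replicate block 22 of 88 were called, 12 higher and 10 lower, beside 17.1% of all genes in that fit.

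Among 28 other hydrolase genes, CTSH, the gene of cathepsin H, rose by 0.61 (SE 0.08, adjusted p = 0.000521, edgeR), from 39.33, 42.37 and 40.19 CPM with DMSO to 65.96, 60.14 and 59.47 with rapamycin. MAN2B1, the lysosomal alpha-mannosidase gene, rose by 0.38 (edgeR adjusted p = 0.00836). None of the 28 was called lower, beside 4.05% of all tested genes, though 11 had a log2 fold change below 0. CTSH and MAN2B1 showed no overlap between groups and were called under all 21 alternatives. As with the CTSF rise, their levels with the non-targeting sgRNA were higher with rapamycin, at 51.66 and 55.66 against 42.60 CPM for CTSH and 68.71 and 69.80 against 57.72 CPM for MAN2B1.

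Of 23 other membrane genes, 3 were called higher and 2 lower (21.7%, beside 6.8% of all tested genes). HGSNAT, an acetyltransferase of heparan sulfate breakdown, which acts in the same pathway as the product of NAGLU, rose by 0.90 (SE 0.11, adjusted p = 0.000299, edgeR), from 20.87, 23.28 and 25.87 CPM to 37.31, 43.51 and 49.34. The gene TMEM192, of a lysosomal membrane protein, fell by 0.67 (SE 0.10, adjusted p = 0.000852), from 35.54, 35.88 and 34.92 CPM to 24.41, 21.57 and 21.05. Both were called under all 21 alternatives.

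CLCN7, the chloride exchanger gene, rose by 0.33 (adjusted p = 0.0138, edgeR), and the call was lost without rapamycin replicate 2 (0.052) or 3 (0.0616) or DMSO replicate 2 (0.0846). LAPTM5, a membrane protein gene of blood cells, rose by 0.51 (adjusted p = 0.0269), lost without rapamycin replicate 1 (0.0538) or 3 (0.101) or DMSO replicate 2 (0.123) or 3 (0.0655). CLN3, a gene mutated in Batten disease, fell by 0.32 (adjusted p = 0.0411). The CLN3 call was lost in 11 of 21 alternatives, with adjusted p up to 0.143.

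In 13 other V-ATPase genes ROGDI, whose product is linked to pump assembly, rose by 0.42 (adjusted p = 0.0489, edgeR), and VMA21, a V0 assembly factor gene, fell by 0.27 (adjusted p = 0.0331). The ROGDI call was lost in 8 of 21 alternatives and the VMA21 call in 7. Among 12 genes that sort enzymes to the lysosome, M6PR, the cation-dependent mannose 6-phosphate receptor gene, fell by 0.44 (SE 0.09, adjusted p = 0.00734), from 80.26, 82.99 and 90.06 CPM to 55.58, 69.35 and 61.62. The M6PR call was lost without DMSO replicate 3 (0.05). GGA2, a sorting adaptor gene, fell by 0.25 (adjusted p = 0.0394), a call lost in 12 of 21 alternatives.

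Of 13 genes in the mTORC1 branch that controls the TFEB family, FLCN, which encodes folliculin, fell by 0.44 (SE 0.10, adjusted p = 0.0122, edgeR), from 39.04, 40.42 and 42.65 CPM to 28.54, 31.35 and 29.91. The groups did not overlap, and the call was lost without rapamycin replicate 3 (0.0552), DMSO replicate 2 (0.0504) or DMSO replicate 3 (0.0617). With the non-targeting sgRNA FLCN was at 28.26 and 34.10 CPM with rapamycin and 40.50 with DMSO.

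**Figure D4:**
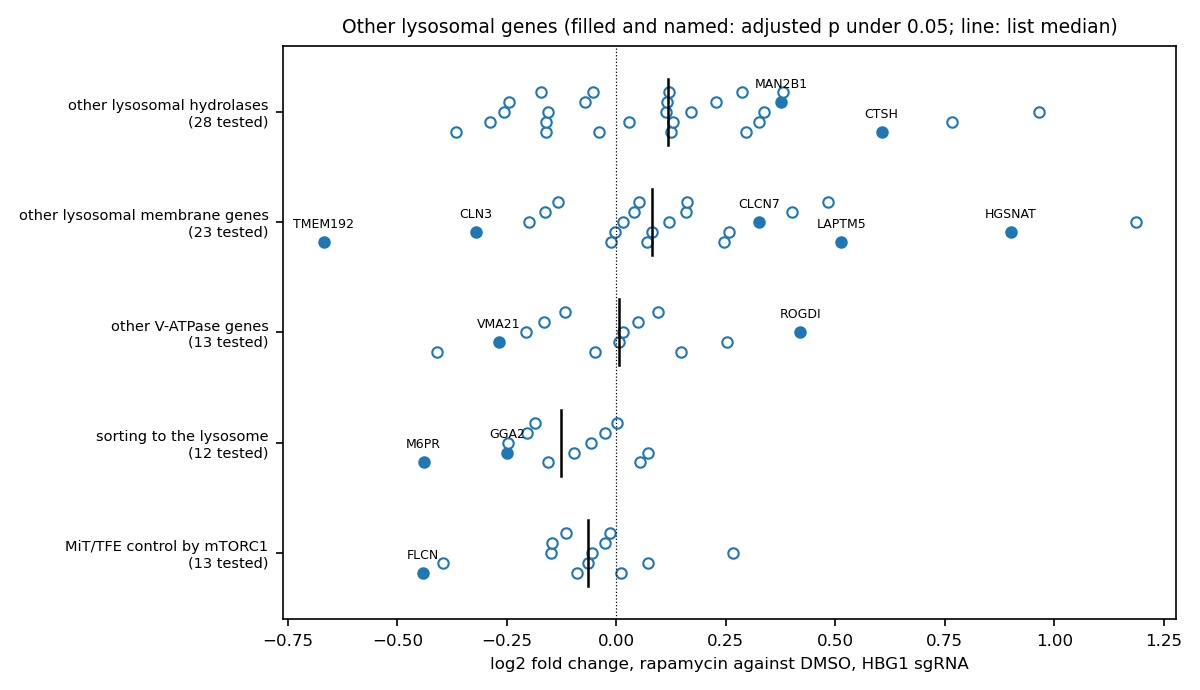
Log2 fold change with rapamycin (HBG1 sgRNA, 3 against 3 libraries) of 89 other lysosomal genes in 5 lists, each point a gene, with filled and named points at an adjusted p under 0.05 and a line at each list's median. The 12 named points lie on both sides of 0, from -0.67 (TMEM192) to 0.90 (HGSNAT).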

How the data were processed

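Per the labels' protocols, poly-T selected RNA of K562 cells went into 9 NEBNext Ultra libraries. What the authors deposited is a table of whole-number counts per Ensembl gene. The submitters' processing notes name STAR 2.7.3a, featureCounts of Subread 2.0.0, R 4.1.2, limma 3.34.9, edgeR 3.24.0 and the build GRCh38. The annotation release, the strand setting and the handling of shared reads are not given in the sources used here, so overlapping genes are uncertain. Of 58347 IDs, 99.47% had a symbol in GENCODE 29, which also gave positions and exon lengths.

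The 48 genes and the further lists were chosen with earlier results of these data known. In edgeR 4.0.16 (R 4.3.3), filterByExpr by group with a minimum count of 10 left 23675 genes, TMM scaled the libraries, and all 9 libraries entered 1 quasi-likelihood fit with 1 mean per group. Standard errors are the log2 fold change over the root of the F statistic. Genes given in full are the 3 regulators, every called gene, the highest and lowest log2 fold change of each role, and, of the further lists, the called genes, at most 3 each way per list; other genes are described by role. No replicate pair was 1 library counted again (chi-square per gene of 4.48 to 16.3). Scripts were tested on simulated data.

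Same-numbered HBG1 sgRNA libraries deviated together over the 11498 genes whose mean log2 CPM reached 3 (correlations of 0.55, 0.28 and 0.23 for replicates 1, 2 and 3, limit 0.1), so by that limit the numbers in the titles pair them. Crossed libraries of replicates 2 and 3 correlated nearly as much (0.26 and 0.19), so only replicate 1 is set apart. The tests have no block unless stated. Alternatives were other scalings (RLE, upper quartile, library totals), other filters, DESeq2 1.42.0, limma voom 3.58.1, each library left out, and block and additive models.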

Additional observations from a re-analysis of the deposited data

Results flagged for a closer look

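GLB1, the lysosomal beta-galactosidase gene, lay on opposite sides of its DMSO libraries with the 2 guides, though it passed no test. With the HBG1 sgRNA its level was 73.08, 74.77 and 71.81 CPM with rapamycin, below all DMSO libraries at 82.36, 76.33 and 82.10, at a log2 fold change of -0.13 (edgeR adjusted p = 0.331). With the non-targeting sgRNA it was 80.98 and 78.71 CPM with rapamycin, above the single DMSO library at 76.70, which itself lies within the range of the HBG1 sgRNA DMSO libraries. The interaction was -0.19 on the log2 scale with an unadjusted p of 0.171 in edgeR's quasi-likelihood test over all 9 libraries, so the difference between guides did not pass the test.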

How the results depend on the processing

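The number of the 48 genes called for rapamycin with the HBG1 sgRNA was 4. It was 11 with the replicate block, 10 in an additive model over both guides, and 17 in an additive model with a replicate block within each guide, a setting chosen after seeing the data. The additive models fit a shared rapamycin effect over both guides, so their counts are not for the HBG1 sgRNA alone. Leaving out 1 library gave 1 to 5, with 1 without HBG1 sgRNA DMSO replicate 2 and 2 without rapamycin replicate 3 or DMSO replicate 3. In the other 15 of 21 alternatives the count was within 1.5 times. Counts over all genes also moved, from 1609 (6.8%) to 3441 (17.1%) with the block and 3263 (13.8%) in the additive model. They were 4952 (20.9%) in that with the block within each guide. Without DMSO replicate 2, rapamycin replicate 3 and DMSO replicate 3 they were 664 (2.85%), 693 (2.98%) and 749 (3.17%). Shares of the 48 genes were 8.33%, 20.8% in the additive model and 35.4% in that with the block within each guide. With the replicate block 23.4% of 47 were called, and without those 3 libraries 2.08%, 4.17% and 4.17% of the 48. Of the 97 further genes 12 were called, 20 in the additive model, 29 in that with the block within each guide, 22 with the replicate block, and 5, 6 and 5 without those 3 libraries. The counts for the guides under rapamycin (18 alternatives) and for the interaction (17 alternatives) were 0 under each, also with the replicate block. No called gene reversed. Of the 16 genes given in full, 6 uncalled ones changed sign in 1 or more of 9 alternatives. LAMP1 passed the test in 6 alternatives, GAA in 4, SMPD1 in 2 and ATP6V1A in 1. The causes were not tested. Depth limits LIPA and TFEB most, and the single non-targeting DMSO library limits every comparison that uses it.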
